A study of Mus musculus with 12 samples.

Results

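The 10 genes described here are the Sprouty genes Spry1, Spry2 and Spry4, the Spred genes Spred1 and Spred2, the phosphatase genes Dusp4 and Dusp6, and the PEA3 transcription factor genes Etv1, Etv4 and Etv5. They were chosen by symbol as negative feedback regulators and transcriptional outputs of ERK signalling, and all 10 were found among the 49315 genes of the count tables. Poly(A) RNA was sequenced in 12 libraries from primary mouse cultures labelled as Müller glia, which are radial glia that span the retina. The glia were wild type and shared medium across a transwell membrane with primary retinal pigment epithelium (RPE) cells. There were 4 groups of 3 libraries: glia facing RPE that had received 100 nM PNU-282987 (PNU), which activates α7 nicotinic acetylcholine receptors, for 6 h, glia facing DMSO-treated RPE for 6 h, glia facing PNU-treated RPE for 2 h, and glia facing DMSO-treated RPE for 2 h. The PNU medium held DMSO too, and the labels give the solvent as 0.1% in one place and 1% in another, state that both cell types had been passaged, and give neither the age nor the sex of the mice. The comparison of PNU with DMSO asks whether treated RPE changes the level of these genes in the glia on the other side of the membrane.

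In the ERK pathway, receptor tyrosine kinases act through the GTPase Ras and the kinases Raf and MEK to activate ERK, which phosphorylates transcription factors and so induces a set of rapid target genes. Some of these targets act back on the pathway. Sprouty and Spred proteins restrain signalling at the level of Ras and Raf. DUSP6 is a cytoplasmic phosphatase selective for ERK, and DUSP4 is a nuclear phosphatase that can act on ERK and on other MAP kinases. The PEA3 factors ETV1, ETV4 and ETV5 are a subgroup of the ETS family, whose members bind DNA at a GGAA core, and their genes are widely used as readouts of FGF and ERK activity in development. ERK activation in Müller glia is known from studies of retinal injury.

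The libraries held 44332013 to 66518799 counts, and each of the 10 genes had at least 377 counts in every library, so depth did not limit these comparisons. Agreement between replicates was uneven. PNU replicates 2 and 3 at 6 h, all 3 DMSO libraries at 6 h, and PNU replicates 2 and 3 at 2 h had pairwise coefficients of variation of 0.0163 to 0.0223, against 0.149 to 0.379 for the other pairs of a group. Counts of the near-identical pairs still differed by more than sampling noise (chi-square per degree of freedom 1.95 to 3.06, where 1 is expected of sampling alone). That excess cannot tell separate cultures from repeat preparations of 1 culture, and the labels do not say which they were. They were kept as separate libraries, and n below counts libraries. The p-values therefore rest on the spread between these libraries, part of which may be technical. PNU at 6 h replicate 1 lay nearer to DMSO at 6 h replicate 3 (root mean square log2 difference 0.485) than to its own group (mean 0.706), and DMSO at 2 h replicate 3 lay nearer to PNU at 2 h replicate 1 (0.405) than to its own group (0.859). By the same measure PNU at 2 h replicate 1 (0.405 against 0.550) and DMSO at 2 h replicates 1 (0.460 against 0.678) and 2 (0.389 against 0.653) were each nearest to a library of another group, which was DMSO at 2 h replicate 3 for the PNU library and DMSO at 6 h replicate 3 for both DMSO libraries. PNU at 6 h replicate 1 and DMSO at 2 h replicate 3 were the farthest from their own groups and are the libraries left out together below. Leaving out libraries picked in this way narrows the spread within groups. Calls gained without either of them follow in part from that choice and are no separate support. Whether these 2 carry the right labels cannot be settled from the files, and every comparison of PNU with DMSO takes the labels as given. The Y-linked gene Ddx3y stood at 7.43 and 6.74 CPM (counts scaled to a library total of 1000000) in PNU at 6 h replicates 2 and 3, 2.23 CPM in PNU at 2 h replicate 1 and 5.00 CPM in DMSO at 2 h replicate 3, and at or under 0.141 CPM in the other 8 libraries, so at 6 h PNU replicates 2 and 3 differed from the DMSO libraries in this marker and PNU replicate 1 did not. For replicates 2 and 3 the treatment and the origin of the cultures cannot be told apart. Of 12 Müller glia markers, 8 had a median over 1 CPM, among them Vim (6060 to 7450 CPM), Sox9 (63.4 to 292 CPM), Glul (61.5 to 94.4 CPM) and Hes1 (36.0 to 57.5 CPM). Rlbp1, Aqp4 and Kcnj10 were at or under 0.302 CPM in every library, while the fibroblast collagen gene Col1a1 stood at 3510 to 4900 CPM and Acta2, smooth muscle actin, at 1500 to 2410 CPM. In such bulk libraries fewer cells of a type and less RNA per cell cannot be told apart.

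Levels of different genes were compared after division by exon length. Over the 12 libraries, Spry2 had the highest median, 28.4 CPM per kb of exon, ahead of Dusp4 with 24.7, Spred1 with 13.6, Etv5 with 13.3 and Spred2 with 12.7 CPM per kb. Dusp6 followed with 9.56, Etv4 with 8.56, Spry1 with 7.76 and Spry4 with 4.25 CPM per kb. Etv1 was the scarcest member, with a median of 1.56 and a range of 1.36 to 2.83 CPM per kb, which did not reach the lowest value of any other member except Spry4 (2.05 CPM per kb). Ranges of the other neighbours in this order overlapped, and Dusp4 spanned 11.1 to 79.3 CPM per kb. The plot of all levels shows each gene in every library.

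**Figure D1:**
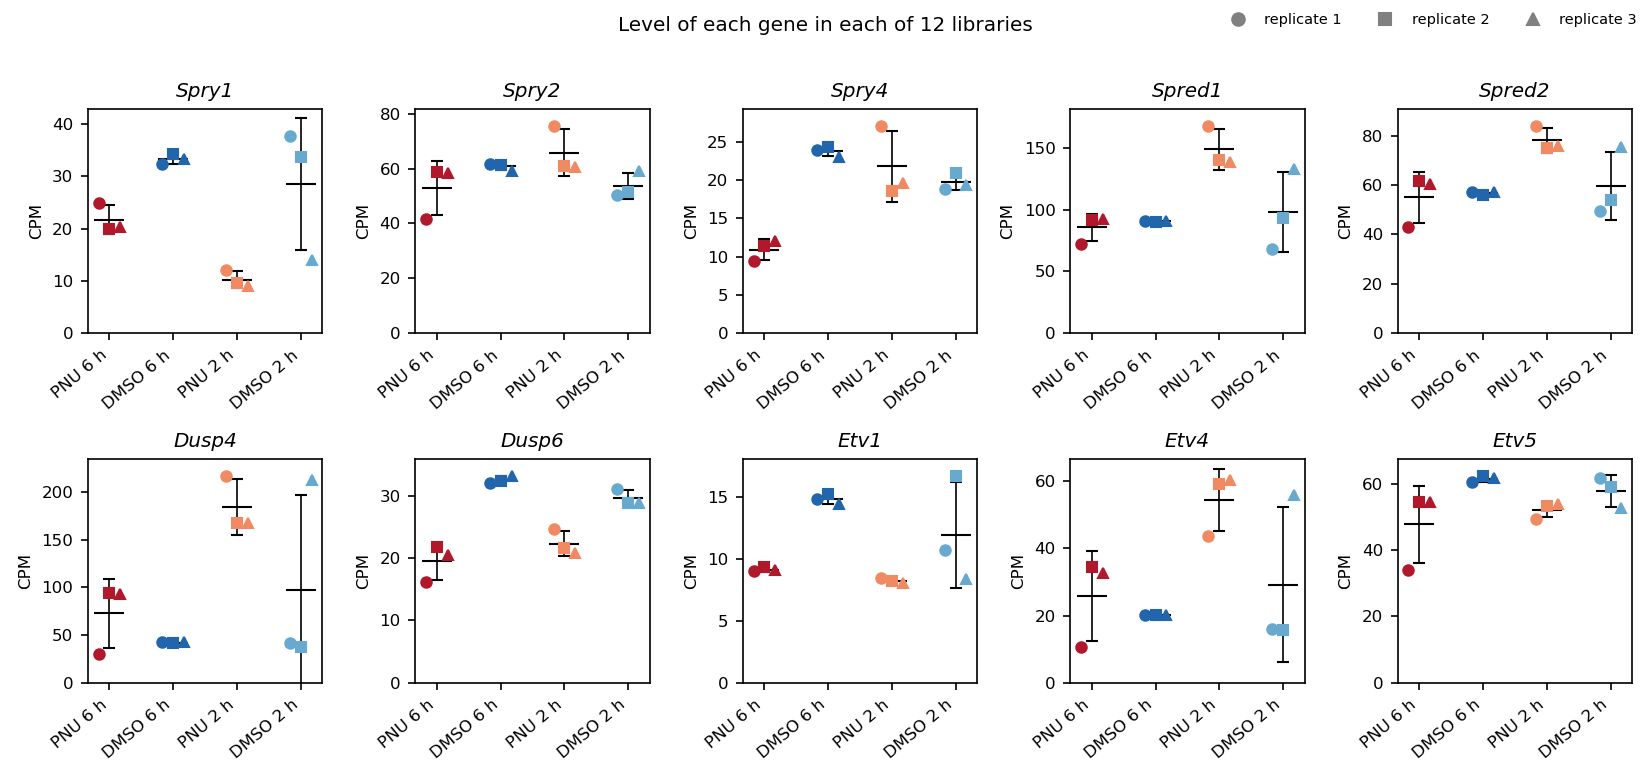
Level of each of the 10 genes in CPM (vertical axes, starting at 0), with 1 point per library, marker shape for the replicate number, and the group mean and SD (n = 3) in black, cut at 0. Spry4 and Dusp6 were lower in all 3 PNU libraries at 6 h than in all 3 DMSO libraries at 6 h, while Dusp4 and Etv4 at 2 h were high in the PNU libraries and in DMSO replicate 3.

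Promoter sequences are shown for the members with a called difference in any comparison below, because these are the genes the results turn on. Of the 10 genes, 7 matched the RefSeq promoter table (GRCm38.p6), without Spry4, Dusp4 and Etv4, and of the 5 called members Dusp6, Spry1, Spred1 and Spred2 are printed. Each line gives the bases before the RefSeq gene start, 5′ to 3′ on the gene's strand, up to 250 bases. For Spred1 the line ends 303 bases before the start of the counted gene, and for Spred2 it holds the 183 bases that lie outside the counted gene. Capitals mark the ETS core GGAA on either strand.
Dusp6 (chr10:99262981-99263230, + strand): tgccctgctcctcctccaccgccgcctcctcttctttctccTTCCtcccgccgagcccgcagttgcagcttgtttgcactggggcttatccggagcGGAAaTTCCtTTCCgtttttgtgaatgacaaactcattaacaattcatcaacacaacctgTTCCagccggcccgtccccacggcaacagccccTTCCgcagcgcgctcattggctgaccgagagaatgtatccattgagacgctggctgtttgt
Spry1 (chr3:37639697-37639946, + strand): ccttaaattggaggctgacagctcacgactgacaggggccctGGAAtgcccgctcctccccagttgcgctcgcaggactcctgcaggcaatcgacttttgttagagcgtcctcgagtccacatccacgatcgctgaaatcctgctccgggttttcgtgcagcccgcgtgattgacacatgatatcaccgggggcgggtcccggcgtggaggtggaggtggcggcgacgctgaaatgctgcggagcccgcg
Spred1 (chr2:117120821-117121070, + strand): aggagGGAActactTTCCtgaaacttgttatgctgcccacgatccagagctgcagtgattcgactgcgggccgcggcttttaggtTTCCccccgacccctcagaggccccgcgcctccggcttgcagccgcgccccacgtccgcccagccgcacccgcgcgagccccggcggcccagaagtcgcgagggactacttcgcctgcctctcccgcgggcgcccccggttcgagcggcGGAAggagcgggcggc
Spred2 (chr11:19924192-19924374, + strand): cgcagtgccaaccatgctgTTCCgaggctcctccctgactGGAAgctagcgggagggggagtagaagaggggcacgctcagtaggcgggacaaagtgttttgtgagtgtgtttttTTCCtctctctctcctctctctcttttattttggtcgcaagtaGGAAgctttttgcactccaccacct
The core was found 6 times in the bases of Dusp6, 1 time in Spry1, 4 times in Spred1 and 4 times in Spred2. It is no distinguishing feature, since 93.4% of the 32851 RefSeq promoters hold it within 250 bases. The longer ETS motif CCGGAAG, searched on both strands, was in none of the 9 windows of the matched members, against 6.91% of all promoters. The same held for the AP-1 motif TGACTCA (4.46% of all promoters), the cyclic AMP response element TGACGTCA (1.55%) and 1 form of the serum response element (0.0609%). These counts describe the letters in these windows and say nothing of which factors bind elsewhere.

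At 6 h, the feedback inhibitors Spry4 and Dusp6 were lower in glia facing PNU-treated RPE than in glia facing DMSO-treated RPE. Spry4, a Sprouty inhibitor of Ras-ERK signalling (ENSMUSG00000024427, GRCm38 chromosome 18, 38586268 to 38601268, minus strand), had 9.40, 11.4 and 12.0 CPM with PNU, against 24.0, 24.4 and 23.0 CPM with DMSO. The groups did not overlap, and even the highest PNU library was far below the lowest DMSO library. The means were 10.9 ± 1.35 CPM with PNU and 23.8 ± 0.697 CPM with DMSO (SD, n = 3 each), a log2 fold change of -1.11 ± 0.14 (SE; adjusted p = 0.00524, edgeR), which is 2.16-fold lower. Dusp6, the ERK phosphatase gene (ENSMUSG00000019960, chromosome 10, 99263231 to 99267488, plus strand), had 16.2, 21.8 and 20.5 CPM with PNU, against 32.0, 32.3 and 33.2 CPM with DMSO. PNU replicate 1 was the lowest PNU library for Dusp6 and Spry4, as it was for every other member except Spry1. For both genes all 3 PNU libraries lay below all 3 DMSO libraries. The part of culture origin in these differences was not tested. Dusp6 averaged 19.5 ± 2.96 CPM with PNU and 32.5 ± 0.615 CPM with DMSO (SD, n = 3 each), a log2 fold change of -0.72 ± 0.12 (SE; adjusted p = 0.0166).

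These were 2 of the 10 members, both lower, against 1.05% of the 17164 genes tested that passed at 6 h, 0.571% higher and 0.484% lower. The Spry4 call held when any single library was left out and ended (adjusted p = 1) once the near-identical libraries had been added up to 1 sample each. The Dusp6 call ended the same way, and also without PNU at 6 h replicate 3 (adjusted p = 0.0678) or without DMSO at 6 h replicate 1, 2 or 3 (0.0938, 0.0939 and 0.102). Without PNU at 6 h replicate 1 and DMSO at 2 h replicate 3, the libraries that stood apart, 6 members were called, 2 higher and 4 lower, and so were 28.6% of all genes tested, 14.2% higher and 14.4% lower.

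The other Sprouty genes did not pass at 6 h. Spry1 (ENSMUSG00000037211, chromosome 3, 37639947 to 37644598, plus strand), a Sprouty gene that limits GDNF signalling in the developing kidney, had 24.8, 19.9 and 20.3 CPM with PNU, against 32.4, 34.3 and 33.3 CPM with DMSO. The groups did not overlap, but the log2 fold change of -0.61 ± 0.29 (SE) missed the threshold (adjusted p = 0.338). Spry1 passed when the libraries at 6 h were fitted alone (adjusted p = 0.0158), without DMSO at 2 h replicate 3 (0.0129) and without both libraries that stood apart (0.000931). These were 3 of 19 alternative fits, and Spry1 missed the threshold in the others. Spry1 shares 710 exon bases with Gm42922 on the opposite strand, which held 15 to 61 counts, and reads from the shared bases cannot be told apart if the counting ignored strand. Spry2 (ENSMUSG00000022114, chromosome 14, 105891949 to 105896819, minus strand), the most abundant Sprouty gene, had 41.7, 58.9 and 58.3 CPM with PNU, against 61.7, 61.2 and 59.3 CPM with DMSO. PNU replicates 2 and 3 lay close under the DMSO libraries, and only PNU replicate 1 stood well below them (log2 fold change -0.18 ± 0.14, SE; adjusted p = 0.561).

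The Spred genes, whose products bind Ras pathway proteins and recruit neurofibromin to the membrane, showed no called difference at 6 h. Spred1 (ENSMUSG00000027351, chromosome 2, 117121374 to 117182279) had 72.5, 92.0 and 92.3 CPM with PNU, against 91.2, 90.4 and 90.6 CPM with DMSO. The groups overlapped, and the 95% interval of its log2 fold change was -0.49 to 0.35. Spred2 (ENSMUSG00000045671, chromosome 11, 19924375 to 20024026) had 43.0, 61.6 and 60.3 CPM with PNU, against 57.0, 56.0 and 57.1 CPM with DMSO, with an interval of -0.38 to 0.32. In both genes PNU replicate 1 was the low library.

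Dusp4 (ENSMUSG00000031530, chromosome 8, 34807297 to 34819894) and the PEA3 gene Etv4 (ENSMUSG00000017724, chromosome 11, 101769742 to 101785371) split the PNU group at 6 h. Dusp4 had 30.5, 94.5 and 92.7 CPM with PNU, against 42.4, 41.2 and 42.3 CPM with DMSO. Etv4 had 10.5, 34.5 and 32.8 CPM with PNU, against 20.3, 20.1 and 20.3 CPM with DMSO. For both genes PNU replicates 2 and 3 lay above the DMSO libraries and PNU replicate 1 lay below them. The tests gave log2 fold changes of 0.80 ± 0.61 for Dusp4 (SE; adjusted p = 0.576) and 0.37 ± 0.51 for Etv4 (adjusted p = 0.775). Without both libraries that stood apart, Dusp4 (1.17, adjusted p = 2.49e-05) and Etv4 (0.75, adjusted p = 0.000389) were called higher, in a fit where only near-identical libraries remained in the groups at 6 h.

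The remaining PEA3 genes were lower with PNU at 6 h without passing. Etv5 (ENSMUSG00000013089, chromosome 16, 22381309 to 22439719) had 34.1, 54.5 and 54.4 CPM with PNU, against 60.5, 62.4 and 61.6 CPM with DMSO (log2 fold change -0.35 ± 0.15, SE; adjusted p = 0.273). Etv1 (ENSMUSG00000004151, chromosome 12, 38779380 to 38868215) had 8.98, 9.34 and 9.08 CPM with PNU, against 14.8, 15.2 and 14.4 CPM with DMSO. Its 3 PNU libraries, including replicate 1, agreed closely (9.13 ± 0.190 CPM with PNU and 14.8 ± 0.400 CPM with DMSO, SD, n = 3 each), and the log2 fold change of -0.68 ± 0.18 (SE) had an adjusted p of 0.102. Etv1 passed when the libraries at 6 h were fitted alone (adjusted p = 0.00305), with DESeq2 (0.0156), and without DMSO at 2 h replicate 2 (0.0195) or 3 (0.00516) or both libraries that stood apart (0.00207). These were 5 of 19 alternative fits, and Etv1 missed the threshold in the others. Counting every member, the PNU and DMSO libraries at 6 h did not overlap for 6 of 10, all of them lower with PNU, against 34.9% of all genes tested, of which 20.8% were lower and 14.1% higher. The median log2 fold change of the members was -0.27, against 0.00 over all genes tested.

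**Figure D2:**
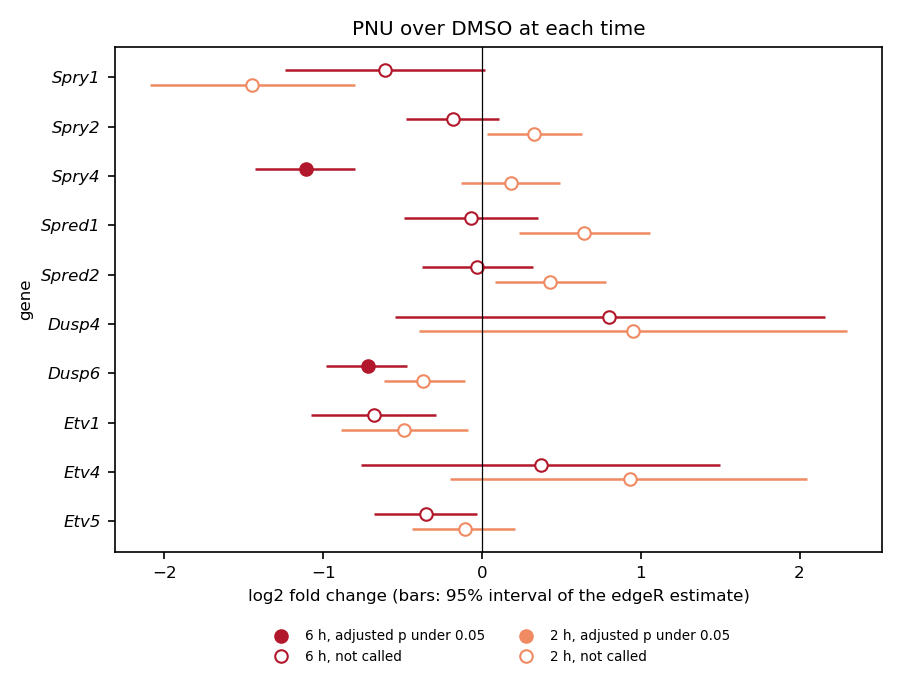
Log2 fold change of PNU over DMSO for each gene (horizontal axis) with its 95% interval, at 6 h (dark) and 2 h (light); filled points have an adjusted p under 0.05. Only Spry4 (-1.11) and Dusp6 (-0.72) at 6 h are filled, and the intervals of Dusp4 and Etv4 are the widest.

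The upstream parts of the pathway and its other targets were set beside these genes. In a list of 28 receptors, adaptors and kinases of the ERK cascade, Egfr, the EGF receptor, rose at 6 h and 27 did not pass (median log2 fold change 0.06). Egfr had 48.3, 43.3 and 42.6 CPM with PNU, against 28.0, 29.5 and 28.4 CPM with DMSO (log2 fold change 0.66 ± 0.11, SE; adjusted p = 0.0192). Among 12 other ERK-responsive transcripts, the immediate early transcription factor genes Egr1 and Fos fell and 10 did not pass (median 0.19). Egr1 had 124, 73.0 and 73.8 CPM with PNU, against 230, 228 and 229 CPM with DMSO (log2 fold change -1.33 ± 0.19, SE; adjusted p = 0.00929), and the change of Fos was -1.72 ± 0.25 (adjusted p = 0.00929). Among those that did not pass was Myc, with 50.3, 65.4 and 63.7 CPM with PNU and 58.4, 59.3 and 57.3 CPM with DMSO. Among 12 other inhibitors of the pathway, of which Spry3 had no row under that symbol and was not analysed here, 0 of 11 passed with edgeR and 0 with DESeq2, and 1 had an unadjusted p under 0.05.

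Some marker levels of other cell types differed between the PNU and DMSO libraries at 6 h. The summed level of 9 pericyte and smooth muscle markers was 4260 to 4390 CPM with PNU, against 3490 to 3550 CPM with DMSO, and of the 9, Cnn1 and Mcam rose. The 8 fibroblast markers summed to 15000 to 15900 CPM with PNU, a range that includes the 15100 CPM with DMSO. Of these 8, Dcn and Lum fell, and Lum was scarce, at or under 1.13 CPM in every library. The 12 Müller glia markers summed to 6670 to 7700 CPM with PNU, against 6800 to 6850 CPM with DMSO, and none of those tested passed. The 4 leukocyte markers summed to 7.46 to 9.29 CPM with PNU, against 1.98 to 2.91 CPM with DMSO, nearly all of it Csf1r, with Ptprc, the defining marker, at or under 0.235 CPM. Their part in the levels of the 10 genes was not tested.

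At 2 h, none of the 10 members passed with edgeR, where 0.291% of all genes did, 0.210% higher and 0.0816% lower. A total of 6 members had an unadjusted p under 0.05, as did 30.0% of all genes tested, and DESeq2 called 3 of 10: Spry1 and Dusp6 lower and Spred1 higher. DESeq2 called 15.6% of all genes to which it gave an adjusted p, 5.89% higher and 9.67% lower. Spry1 stood lowest in the PNU libraries, with 12.1, 9.51 and 8.99 CPM, against 37.8, 33.7 and 14 CPM with DMSO. The groups did not overlap, though DMSO replicate 3 lay close to the PNU libraries and far below the other DMSO libraries. The means were 10.2 ± 1.66 CPM with PNU and 28.5 ± 12.7 CPM with DMSO (SD, n = 3 each), a log2 fold change of -1.45 ± 0.29 (SE; adjusted p = 0.0583). With the replicate number as a block it was -1.39 (adjusted p = 0.0400), and without PNU at 6 h replicate 1 it was -1.45 (adjusted p = 0.0494). In all, Spry1 passed at 2 h in 5 of 19 alternative fits.

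Dusp6 had 24.7, 21.6 and 20.8 CPM with PNU at 2 h, against 31.1, 28.8 and 28.8 CPM with DMSO. All its PNU libraries were lower, but it did not pass (log2 fold change -0.37 ± 0.12, SE; adjusted p = 0.0842). Spry4 was not lower in this way at 2 h, with 27.1, 18.6 and 19.6 CPM with PNU, against 18.9, 20.9 and 19.4 CPM with DMSO. The Spry4 groups overlapped (log2 fold change 0.18 ± 0.14, SE; adjusted p = 0.394).

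Spred1 was higher in every PNU library at 2 h, at 168, 140 and 139 CPM, against 68.3, 93.0 and 133 CPM with DMSO (log2 fold change 0.64 ± 0.19, SE; adjusted p = 0.0775). Spred2 had 84.0, 74.9 and 75.7 CPM with PNU, against 49.6, 54.0 and 75.3 CPM with DMSO, and Spry2 had 75.6, 60.9 and 60.7 CPM with PNU, against 50.3, 51.5 and 59.3 CPM with DMSO. For Spred1, Spred2 and Spry2 DMSO replicate 3 was the highest DMSO library, and for Spred2 it overlapped the PNU libraries. Spred2 (log2 fold change 0.43 ± 0.16, SE; adjusted p = 0.113) and Spry2 (0.33 ± 0.14; adjusted p = 0.139) did not pass. The contrast between DMSO libraries was sharpest in Dusp4, with 217, 167 and 167 CPM with PNU, against 41.7, 37.2 and 213 CPM with DMSO. Etv4 also split the DMSO libraries, with 43.7, 59.3 and 60.3 CPM with PNU, against 16.0, 15.8 and 55.9 CPM with DMSO. The groups of both genes overlapped through DMSO replicate 3 alone, and neither passed (Dusp4 0.95 ± 0.61, adjusted p = 0.303; Etv4 0.93 ± 0.51, adjusted p = 0.237; log2 fold changes ± SE).

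Etv1 had 8.44, 8.20 and 8.03 CPM with PNU at 2 h, against 10.7, 16.7 and 8.40 CPM with DMSO, and Etv5 had 49.4, 53.3 and 53.8 CPM with PNU, against 61.7, 59.1 and 52.6 CPM with DMSO. Both overlapped through DMSO replicate 3 and neither passed (adjusted p = 0.109 for Etv1 and 0.614 for Etv5). Without DMSO at 2 h replicate 3, edgeR called 8 of the 10 members, with Spry2, Spred1, Spred2, Dusp4 and Etv4 higher with PNU and Spry1, Dusp6 and Etv1 lower. The same fit called 43.8% of all genes tested, 20.9% higher and 22.9% lower. It leaves out a DMSO library whose nearest library was a PNU library, so a gain in calls was built into that choice. The log2 fold change was then 2.25 for Dusp4 (adjusted p = 0.00388) and 1.81 for Etv4 (adjusted p = 0.0102). For 4 of 10 members the groups at 2 h did not overlap, 2 higher and 2 lower, against 22.7% of all genes tested (9.06% higher and 13.6% lower).

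The same lists of pathway genes were read at 2 h. At that time DESeq2 called 15.6% of all genes to which it gave an adjusted p. An unadjusted p under 0.05 was found for 30.0% of all genes tested. Of the 12 other ERK-responsive transcripts, edgeR called 0 and DESeq2 4, and 8 had an unadjusted p under 0.05. The log2 fold change was positive for 11 of the 12, with a median of 0.74, against -0.01 over all genes tested and 0.25 over the 10 members. Of the 28 genes of the ERK cascade, edgeR called 0 and DESeq2 5, and 10 had an unadjusted p under 0.05 (median 0.12). Of the 11 other inhibitors, edgeR called 0 and DESeq2 2, and 5 had an unadjusted p under 0.05 (median 0.24). Dusp5 stood at 231, 165 and 172 CPM with PNU, against 21.7, 19.8 and 135 CPM with DMSO, the same high DMSO replicate 3 as in Dusp4 and Etv4.

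**Figure D3:**
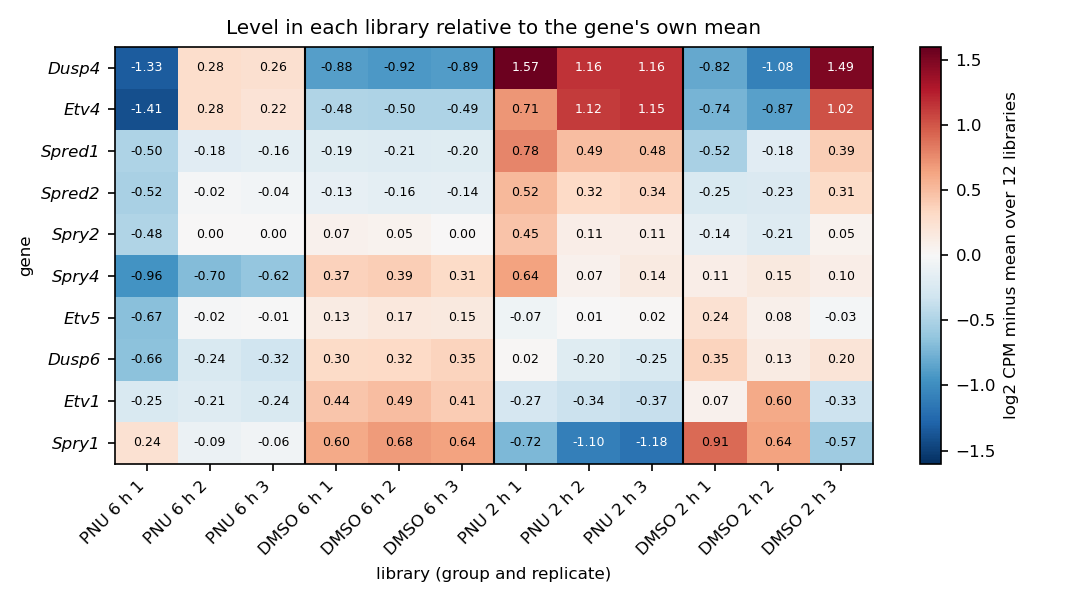
Log2 CPM of each gene minus its own mean over the 12 libraries (colour and printed value), with genes in rows and libraries in columns by group. Dusp4 and Etv4 are high in the PNU libraries at 2 h and in DMSO at 2 h replicate 3 and low in PNU at 6 h replicate 1, and Spry1 runs opposite to them among the libraries at 2 h.

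The effect of PNU at 6 h minus that at 2 h was not called for any of the 10 members with edgeR, where 0.0350% of all genes passed, 0.0175% higher and 0.0175% lower. Unadjusted p-values under 0.05 were found for 3 members, against 11.3% of all genes tested. Spry4 had the largest difference between the times, -1.29 ± 0.20 on the log2 scale (SE; adjusted p = 0.0757), and was called with DESeq2 (adjusted p = 1.93e-05), without a filter on low counts (0.0263), and without PNU at 2 h replicate 1 (0.0420), PNU at 6 h replicate 1 (0.0269), DMSO at 2 h replicate 3 (0.00270) or both libraries that stood apart (0.00150). These were 6 of 18 alternative fits, and Spry4 missed the threshold in the others. Spry2 had all PNU libraries below all DMSO libraries at 6 h and above them at 2 h, and its difference of -0.51 ± 0.19 (SE) did not pass (adjusted p = 0.373). For Dusp6 the difference was -0.35 ± 0.16 (SE) and did not pass either (adjusted p = 0.450). Without DMSO at 2 h replicate 3, Spry1 (1.17, adjusted p = 0.00266), Spred1 and Spred2 were called beside Spry4, 1 higher and 3 lower, and so were 16.7% of all genes tested, 8.52% higher and 8.19% lower. The values at 6 h and at 2 h come from separate libraries.

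With PNU, 4 members differed between 6 h and 2 h: Spry4, Spred1 and Spred2 fell and Spry1 rose. Of all genes tested, 16.1% passed in this comparison, 7.42% higher and 8.66% lower, and 35.1% had an unadjusted p under 0.05, as did 7 of the members. Spry4 averaged 10.9 ± 1.35 CPM at 6 h and 21.8 ± 4.64 CPM at 2 h (SD, n = 3 each), a log2 fold change of -1.06 ± 0.14 (SE; adjusted p = 0.00327). Spred1 averaged 85.6 ± 11.3 CPM at 6 h and 149 ± 16.7 CPM at 2 h, a log2 fold change of -0.86 ± 0.19 (SE; adjusted p = 0.0173). Spred2 averaged 55.0 ± 10.4 CPM at 6 h and 78.2 ± 5.04 CPM at 2 h (-0.57 ± 0.16; adjusted p = 0.0360). Spry1 went the other way, with 21.7 ± 2.72 CPM at 6 h and 10.2 ± 1.66 CPM at 2 h (1.03 ± 0.29; adjusted p = 0.0377). The Spry4 call held in all 12 fits that left out a library. The Spred1 call held in 9 of these and ended without PNU at 2 h replicate 1 or 3 or PNU at 6 h replicate 2 (adjusted p = 0.0595, 0.0513 and 0.0502), and the calls of Spred2 and Spry1 held in 3 each, those without DMSO at 2 h replicate 1, 2 or 3. The Spry1 call also ended without a filter on low counts (adjusted p = 0.0970). All 4 ended when near-identical libraries were summed (adjusted p = 0.410 to 0.415). These values share the PNU libraries with the comparisons of PNU and DMSO. Levels of the Y-linked gene Ddx3y also differed between the times with PNU. Replicates 2 and 3 had 7.43 and 6.74 CPM at 6 h, against 0.087 and 0.015 CPM at 2 h. Replicate 1 went the other way, with 0.141 CPM at 6 h and 2.23 CPM at 2 h. Whether culture origin has a part in the differences between 6 h and 2 h with PNU was not tested.

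Markers of cell types also differed between 6 h and 2 h with PNU. The Müller glia marker Sox9 fell, with 63.4, 71.8 and 71.0 CPM at 6 h, against 292, 214 and 230 CPM at 2 h (log2 fold change -1.90 ± 0.26, SE; adjusted p = 0.00342), and so did the pericyte marker Cspg4 (-1.17 ± 0.15; adjusted p = 0.00256). None of the other Müller glia markers tested passed. Slc1a3, Abca8a, Apoe, Clu, Glul and Hes1 had positive changes, and Vim and Dkk3 had negative ones. The fibroblast marker Fbln1 (2.01 ± 0.44; adjusted p = 0.0171), Mcam (0.33 ± 0.08; adjusted p = 0.0204), Csf1r (0.93 ± 0.28; adjusted p = 0.0437) and the astrocyte marker Aldh1l1 (2.01 ± 0.56; adjusted p = 0.0345) rose. The Müller glia markers summed to 6670 to 7700 CPM at 6 h, against 7470 to 7790 CPM at 2 h, the fibroblast markers to 15000 to 15900 CPM at 6 h, against 12700 to 14100 CPM at 2 h, and the pericyte and smooth muscle markers to 4260 to 4390 CPM at 6 h, against 4430 to 4840 CPM at 2 h. Of the Müller glia sum, Vim alone held 6400 to 7450 CPM at 6 h and 7040 to 7370 CPM at 2 h. At 2 h, Cspg4 was the marker called between PNU and DMSO (0.86 ± 0.15; adjusted p = 0.0385). The part of these cell types in the levels of the 10 genes was not tested.

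Dusp4 and Etv4 also stood lower at 6 h with PNU in every library, without passing. Dusp4 averaged 72.6 ± 36.4 CPM at 6 h and 184 ± 29.2 CPM at 2 h (log2 fold change -1.40 ± 0.62, SE; adjusted p = 0.133), and Etv4 25.9 ± 13.4 CPM at 6 h and 54.4 ± 9.32 CPM at 2 h (-1.13 ± 0.51; adjusted p = 0.143). Dusp4 passed with the PNU groups fitted alone (adjusted p = 0.0477), without DMSO at 2 h replicate 3 (0.0189) and without both libraries that stood apart (6.63e-05), and Etv4 without that library (0.0441) and without both (0.000334). These were 3 of 19 alternative fits for Dusp4 and 2 of 19 for Etv4. Dusp6 (-0.26 ± 0.12; adjusted p = 0.141), Spry2 (-0.37 ± 0.14; adjusted p = 0.0795), Etv5 (-0.19 ± 0.15; adjusted p = 0.375) and Etv1 (0.09 ± 0.18; adjusted p = 0.742) did not pass either. Without DMSO at 2 h replicate 3, 7 members were called, 1 higher and 6 lower, with Spry2 (adjusted p = 0.0386), Dusp4 and Etv4 added, and so were 34.2% of all genes tested, 17.3% higher and 16.8% lower. In all, 8 of 10 members had no overlap between the PNU libraries at 6 h and those at 2 h, 6 lower and 2 higher at 6 h, against 51.7% of all genes (21.0% lower and 30.7% higher).

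With DMSO, no member was called between 6 h and 2 h. Both edgeR and DESeq2 called 0 of 10, and 0 had an unadjusted p under 0.05. Of all genes tested, edgeR called 0%, and 4.77% had an unadjusted p under 0.05. DESeq2 called 19 genes. Dusp4 averaged 42.0 ± 0.684 CPM at 6 h and 97.1 ± 99.9 CPM at 2 h (SD, n = 3 each), and the log2 fold change was -1.25 with DMSO at 2 h replicate 3 and 0.05 without it. The 95% interval of Spry4 was -0.07 to 0.55 and that of Dusp6 was -0.16 to 0.35, and both were slightly higher in all 3 libraries at 6 h. Groups did not overlap for 3 of 10 members, all higher at 6 h, against 9.75% of all genes (6.12% higher and 3.64% lower).

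**Figure D4:**
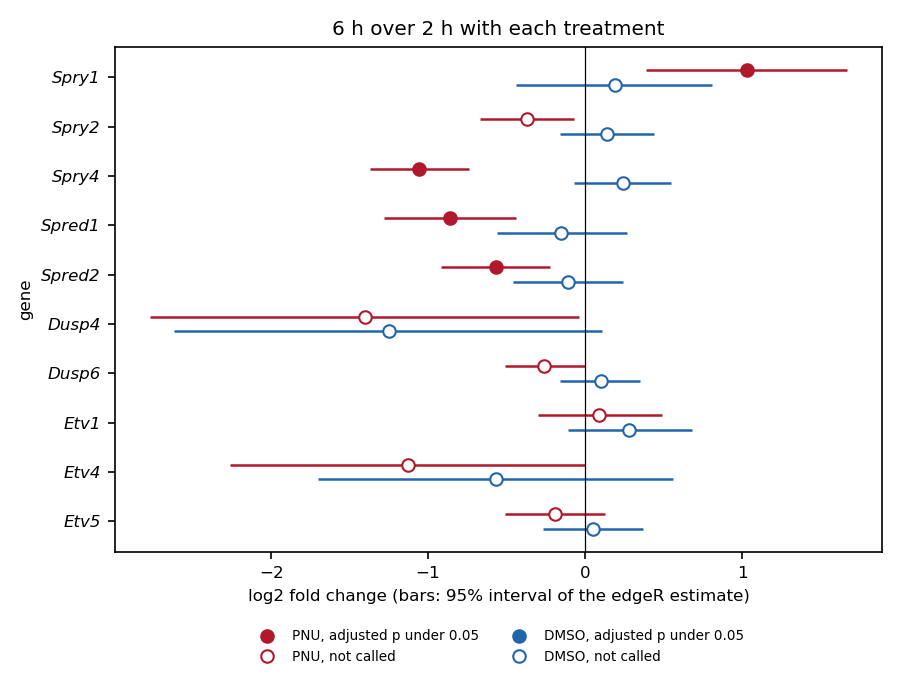
Log2 fold change of 6 h over 2 h for each gene (horizontal axis) with its 95% interval, with PNU (red) and with DMSO (blue); filled points have an adjusted p under 0.05. The filled points are Spry1 (1.03), Spry4 (-1.06), Spred1 (-0.86) and Spred2 (-0.57), all with PNU.

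Some other feedback inhibitors and targets of the pathway were also called lower at 6 h than at 2 h with PNU. In this comparison 16.1% of all genes tested passed, 7.42% higher and 8.66% lower, and 35.1% had an unadjusted p under 0.05. In the list of other inhibitors, Dusp5, a nuclear phosphatase selective for ERK, and Errfi1, which inhibits EGF receptor kinases, fell and 9 of 11 did not pass (median log2 fold change -0.30, against 0.03 over all genes). Dusp5 had 24.8, 40.2 and 42.3 CPM at 6 h, against 231, 165 and 172 CPM at 2 h with PNU (log2 fold change -2.46 ± 0.63, SE; adjusted p = 0.0283). Errfi1 had 56.5, 34.5 and 35.0 CPM at 6 h, against 265, 127 and 126 CPM at 2 h with PNU (-2.10 ± 0.49; adjusted p = 0.0212). Of the 12 other ERK-responsive transcripts, 5 fell and 7 did not pass (median -1.02). The 4 of smallest p were Egr1 (-1.48 ± 0.19; adjusted p = 0.00267), the survival gene Ier3 (-2.17 ± 0.40; adjusted p = 0.00965), the AP-1 gene Fosl2 (-1.03 ± 0.21; adjusted p = 0.0127) and Myc (-1.0 ± 0.21; adjusted p = 0.0138). Of the 28 genes of the ERK cascade, 0 passed with edgeR in this comparison, 2 passed with DESeq2 and 6 had an unadjusted p under 0.05 (median -0.07).

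Ratios within a library do not depend on library scaling. Per exon length, Dusp4 exceeded Dusp6 by 1.93, 4.42 and 4.61 times in the PNU libraries at 6 h, against 1.35, 1.30 and 1.30 times with DMSO. At 2 h the ratio was 8.99, 7.87 and 8.19 with PNU, against 1.37, 1.32 and 7.53 with DMSO. All PNU libraries at 6 h lay above all DMSO libraries at 6 h in this ratio. Dusp6 was lower in each of them (16.2, 21.8 and 20.5 CPM, against 32.0, 32.3 and 33.2 CPM with DMSO), while Dusp4 differed between them. In PNU replicate 1 Dusp4 itself, at 30.5 CPM, lay below the DMSO libraries (41.2 to 42.4 CPM), and Dusp6 was lowest, at 16.2 CPM. In PNU replicates 2 and 3 Dusp4 lay above the DMSO libraries. Among the PEA3 genes, Etv4 made up 25.6%, 42.7% and 41.7% of the summed CPM per kb with PNU at 6 h, against 27.5%, 26.7% and 27.3% with DMSO, and 51.1%, 57.0% and 57.3% with PNU at 2 h, against 23.4%, 22.8% and 55.8% with DMSO. Among Spry1, Spry2 and Spry4, Spry4 made up 6.70%, 6.59% and 6.95% with PNU at 6 h, against 11.4%, 11.4% and 11.2% with DMSO, and the PNU libraries agreed in this share, replicate 1 included. With 3 libraries a group these ratios were not tested.

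**Figure D5:**
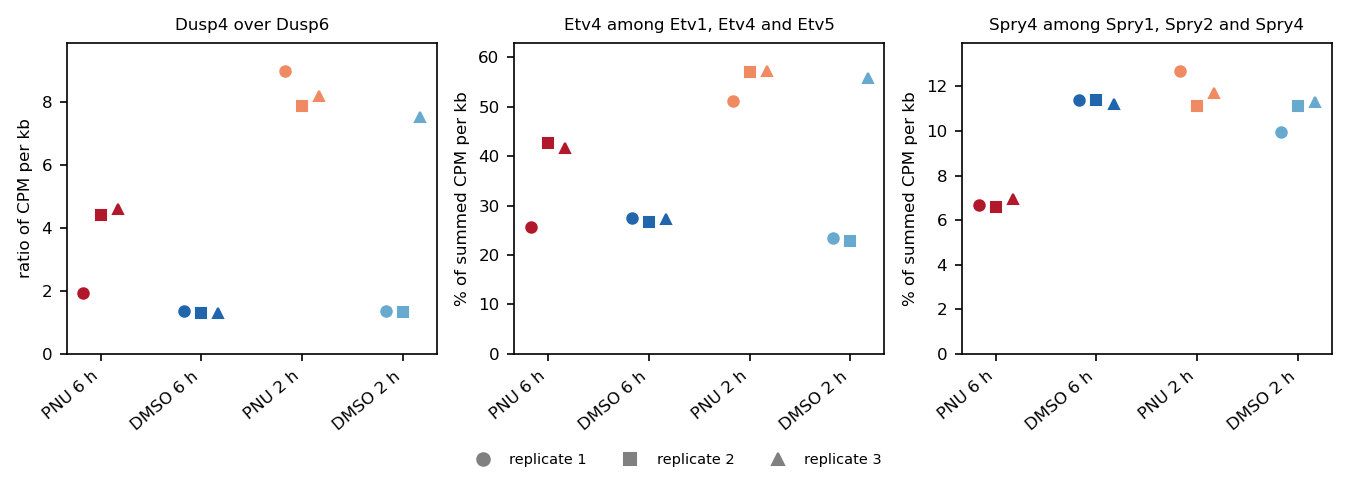
Ratio of Dusp4 to Dusp6, share of Etv4 among the PEA3 genes and share of Spry4 among the Sprouty genes, each from CPM per kb of exon (vertical axes, starting at 0), with 1 point per library and marker shape for the replicate number. The Spry4 share lies between 6.59% and 6.95% in the PNU libraries at 6 h and between 11.2% and 11.4% in the DMSO libraries at 6 h.

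Likeness between patterns was measured as the root mean square difference of log2 CPM, centred per gene, over the 12 libraries, which include the near-identical ones. Among the members Spred1 and Spred2 were the closest pair (0.145), followed by Spry2 and Spred2 (0.156) and by Dusp6 and Etv5 (0.191), and Spry1 and Dusp4 were the farthest apart (1.73). Among all other genes with a mean of at least 10 CPM, the 3 nearest to Spry4 were the synaptic immediate early gene Arc (0.162), the prostacyclin receptor gene Ptgir (0.197) and the apelin gene Apln (0.240), where Spry4 itself varied by 0.470 around its mean. Those nearest to Spry1 were the adrenomedullin gene Adm (0.152), Smpdl3a (0.154) and the transcription factor gene Snai2 (0.159). Nearest to Dusp6 were Sav1 (0.141), Sord (0.153) and Pparg (0.162), nearest to Spred1 were Heatr1 (0.0780), Eea1 (0.0840) and Socs5 (0.105), and nearest to Spred2 were Utp4 (0.0820), Adpgk (0.0830) and Nol10 (0.0850).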

How the data were processed

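Libraries were made from poly(A)-selected RNA and read as 150 bp pairs, per the labels' protocols. Per the same protocols, the authors' tools were fastp 0.23.2 (read trimming), STAR 2.5.2b (alignment) and featureCounts from Subread 1.5.2 (gene counts), and the build was GRCm38. Each library has 1 deposited table of unnormalized counts, whole numbers for each gene, and its other columns include exon length, per the file headers. The strand setting, the treatment of multi-mapping reads and the annotation release are not given in the sources used here. Of 49315 gene identifiers, 48970 were paired with a symbol.

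Counts were tested with edgeR 4.0.16 (R 4.3.3): filterByExpr kept 17164 genes, all 10 members among them, TMM set the scaling, and a robust quasi-likelihood fit took 4 group means from all 12 libraries. P-values were adjusted by the Benjamini-Hochberg method across the genes tested, separately for each of 5 contrasts, and a gene was called under 0.05. The SE of a log2 fold change is its size over the square root of F, and 95% intervals use the t distribution with the test's degrees of freedom. CPM are counts scaled to a library total of 1000000. DESeq2 1.42.0 was an alternative; the submitters' processing notes also name it, with no role.

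The members, lists, contrasts and alternatives were chosen with earlier results of these data known. Named besides the members are up to 4 passing genes of each list in each contrast and the 3 genes nearest in pattern to each called member; any further gene was picked with its values in view. The GGAA motif was added after the other motifs were found in no member window. The fits were also run on simulated counts of independent libraries. These held neither near-identical libraries nor libraries that stood apart, so that run does not bear on calls that depend on them.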

Additional observations from a re-analysis of the deposited data

How the results depend on the processing

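Counts below are given as members of 10 and, after a slash, all genes tested; where a setting is not named, the count was within 1.5 times that of the main analysis. For PNU against DMSO at 6 h the main counts were 2 / 181, and 1 to 4 / 22 to 1606 with single libraries left out, 4 / 1646 with only the 6 h groups fitted, 0 / 0 with near-identical libraries summed (267 genes at an unadjusted p under 0.05), 6 / 4981 without both libraries that stood apart, 865 genes with DESeq2 and 296 with the replicate number as a block. At 2 h they were 0 / 50 in the main analysis, 0 to 8 / 0 to 7724 with single libraries left out, 1 / 311 with the replicate block, 9 / 9080 without both libraries, 3 / 2416 with DESeq2, and 140 genes without a filter. They were 0 genes with only the 2 h groups fitted (2926 at an unadjusted p under 0.05) and 0 with near-identical libraries summed (1487). For the difference of the effects they were 0 / 6, 0 to 4 / 0 to 2947 with single libraries left out, 1 / 15 without a filter, 7 / 3788 without both libraries, 1 / 238 with DESeq2, 0 genes with the replicate block (1929 at an unadjusted p under 0.05) and 0 with libraries summed (226). For 6 h against 2 h with DMSO they were 0 / 0, 0 to 0 / 0 to 4 with single libraries left out, 117 genes without both libraries and 19 with DESeq2. With PNU they were 4 / 2759, 1 to 7 / 566 to 6026 with single libraries left out, 0 / 0 with libraries summed (2236 at an unadjusted p under 0.05), 5311 genes with only the PNU groups fitted and 6170 without both libraries.

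Scaling by DESeq2 size factors changed none of the 50 member results. No called member result changed sign under any alternative. The summed fit leaves DMSO at 6 h as 1 sample that is assumed to vary like the other groups, and the fit without both libraries keeps mostly near-identical ones. Whether the replicate numbers pair the libraries was not settled. Same-numbered libraries of different groups had correlations of their deviations of -0.313 to 0.416, and libraries of different number were not compared. The block changed 1 of 50 member calls, Spry1 at 2 h (adjusted p = 0.0400, edgeR), and moved the count of all genes called at 2 h from 50 to 311. Other causes of these changes were not tested.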

Other observations

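Among the other ETS factors, edgeR called none between PNU and DMSO, and several were lower at 6 h than at 2 h with PNU. Of 16 ETS genes outside the PEA3 group, 13 could be tested, and Ehf, Erg and Spdef were too scarce. Between PNU and DMSO at 6 h, edgeR and DESeq2 called 0 of 13 and 1 had an unadjusted p under 0.05 (median log2 fold change 0.06). At 2 h edgeR called 0 and DESeq2 5, and 8 had an unadjusted p under 0.05 (median 0.21). DESeq2 called 15.6% of all genes to which it gave an adjusted p at 2 h, and 30.0% of all genes tested had an unadjusted p under 0.05. With PNU, 5 of the 13 fell between 2 h and 6 h and 8 did not pass (median -0.26), where 8.66% of all genes tested were called lower. Ets2, an ETS factor activated by ERK, had 15.0, 14.9 and 16.6 CPM at 6 h, against 26.2, 26.2 and 27.1 CPM at 2 h with PNU (log2 fold change -0.83 ± 0.23, SE; adjusted p = 0.0341). It stood at 25.7 CPM in DMSO at 2 h replicate 3 and at 13.6 and 11.8 CPM in the other DMSO libraries at 2 h. Elf4 (-0.40 ± 0.08; adjusted p = 0.00965), the repressor gene Etv3 (-0.36 ± 0.09; adjusted p = 0.0295) and Elk4 (-0.47 ± 0.13; adjusted p = 0.0319) fell as well.

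Of the JNK and p38 phosphatases Dusp8, Dusp10 and Dusp16, Dusp8 rose between 2 h and 6 h with PNU, with 14.7, 18.4 and 18.6 CPM at 6 h, against 10.4, 11.3 and 12.0 CPM at 2 h (log2 fold change 0.56 ± 0.15, SE; adjusted p = 0.0323), and the other two did not pass. Plaur, the urokinase receptor gene and a target of ERK, split the DMSO libraries at 2 h. It had 180, 181 and 174 CPM with PNU at 2 h, against 23.2, 19.5 and 149 CPM with DMSO.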
